A study of Homo sapiens with 6 samples.

Results

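The transcripts of 45 genes of the actin cytoskeleton and of cell contractility were followed in RKO cells, out of 58735 genes in the deposited table. The 45 genes were taken from a list of names, with no threshold on a measured value. They encode actin itself, the chains of myosin II, the tropomyosins, the calponin family, proteins that turn over, cap, branch or crosslink the filaments, proteins of adhesions and stress fibres, and the transcription factor SRF. RKO is an established human colorectal carcinoma line. Vector denotes 3 libraries of RKO cells carrying the control vector, and LOC_OE denotes 3 libraries of RKO cells stably overexpressing the long non-coding RNA LOC101927668 from a lentivirus, after selection with puromycin. The sources used here do not say whether the stable lines were clones or pools, or whether the libraries of a group came from separate cultures, so the p-values measure only the spread between these libraries.

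Actin monomers assemble into filaments that grow at the barbed end, where capping protein stops growth and profilin delivers monomers, while cofilins sever old filaments and return monomers to the pool. Myosin II pulls on filaments that tropomyosin lines and that alpha-actinin and filamin crosslink, and the force reaches the matrix through talin, vinculin and zyxin at focal adhesions. Free actin monomers hold back the SRF cofactors MRTF-A and MRTF-B, and SRF drives many genes of the actin machinery through a promoter element called the CArG box, which gives carcinoma cells a link between cell shape, migration and transcription.

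The measure is FPKM, in which fragments per gene are divided by exon length and library size. The 6 libraries held between 15008842 and 18410231 reads on genes, and LOC101927668 had 1, 1 and 0 reads in the Vector libraries against 231, 270 and 276 in the LOC_OE libraries. LOC_OE replicate 1 stood apart. Its Pearson correlation across genes with LOC_OE replicates 2 and 3 was 0.967 and 0.962, against 0.982 between replicates 2 and 3 and 0.982 to 0.983 between Vector libraries. Results are therefore given with it and without it. RKO is labelled as a colorectal cancer line, and of 11 markers of colorectal epithelium 4 reached 1 FPKM in a library (EPCAM, KRT8, KRT18 and CDX2), while CDH1, CDX1 and CEACAM5 had 0 reads in every library. None of 8 fibroblast markers, 7 striated muscle actins and myosins or 4 endothelial markers reached 1 FPKM. Of 8 smooth muscle markers, ACTA2 and SMTN did, and of 5 leukocyte markers CD68 did. In bulk RNA, fewer cells of a type and less RNA per cell cannot be told apart.

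The promoters of 6 of the genes held a CArG box. RefSeq promoters, from 250 bases before to 50 bases after the start site on GRCh38.p14, were at hand for 41 of the 45 genes (not for TAGLN, MYL9, PFN2 and ACTB), and 6 of these 41, or 14.6%, held a CArG box, against 438 of 27305 promoters in all, or 1.60%. The box is written the same way on both strands, so each match was counted once. The boxes are shown with 10 bases on each side because SRF and the actin gene ACTG1 are among their carriers. The capitals mark the box, and each sequence is the strand of the gene.
ACTG1, chr17:81512874-81512903, minus strand: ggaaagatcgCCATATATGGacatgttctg
CNN2, chr19:1026509-1026538, plus strand: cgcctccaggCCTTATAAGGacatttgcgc
TPM4, chr19:16067355-16067384, plus strand: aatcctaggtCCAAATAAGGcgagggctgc
ACTN1, chr14:68977718-68977747, minus strand: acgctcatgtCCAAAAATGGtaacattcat
FLNA, chrX:154374709-154374738, minus strand: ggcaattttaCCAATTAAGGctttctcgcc
SRF, first box, chr6:43171229-43171258, plus strand: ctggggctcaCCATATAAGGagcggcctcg
SRF, second box, chr6:43171249-43171278, plus strand: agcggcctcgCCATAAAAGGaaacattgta
The first base of the box lay 94 bases before the start site in ACTG1 and FLNA, 89 before it in CNN2, 173 before it in TPM4 and 171 before it in ACTN1. SRF held a pair of boxes, 30 and 10 bases before its start site. Of these 6 genes ACTG1 rose in LOC_OE, and the other 5 did not pass the test. A match to the letters is not evidence that SRF bound there.

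Actin transcripts were the most abundant of the family by FPKM. Over the 6 libraries ACTG1 had the highest mean FPKM, followed by ACTB, PFN1, FLNA, ZYX and MYL12B. The divisor is the merged length of all annotated exons, so a rank between genes depends on how many exons are annotated. In Vector replicate 1, TPM1 had 1142 reads at 4.73 FPKM and TPM2 had 306 reads at 5.02 FPKM. Of the 42 genes that passed the filter of 0.5 FPKM in at least 3 libraries, 7 had a mean of at least 100 FPKM, 30 lay between 10 and 100 and 5 lay between 1 and 10. The other 3 did not pass and were not tested. The smooth muscle calponin CNN1 was covered by 27, 17 and 9 reads in the Vector libraries against 0, 0 and 4 in the LOC_OE libraries, the muscle filamin FLNC had at most 6 reads in a library, and PDLIM1 had 2 reads in LOC_OE replicate 2 and 0 in the other 5 libraries. The 45 genes together took 1.37%, 1.37% and 1.36% of all FPKM in the Vector libraries and 1.72%, 1.44% and 1.40% in the LOC_OE libraries. ACTB and ACTG1 made up 41.5%, 40.2% and 40.1% of that sum in Vector and 50.5%, 48.1% and 47.8% in LOC_OE, so the groups did not overlap in either share.

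In LOC_OE, transcripts of cytoplasmic actin, of a myosin light chain and of a cofilin rose, and a coronin, a tropomyosin and a profilin fell. The test was limma's moderated test on log2(FPKM + 1), and a gene is said to have changed where its Benjamini-Hochberg adjusted p-value over all 16061 genes tested was under 0.05. Of the 42 tested genes 5 rose (ACTG1, MYL12B, CFL2, ARPC3 and CAPZA1), against 10.7% of all genes tested. The 3 that fell were CORO1B, TPM1 and PFN2, against 9.74% of all genes tested. With a fold change of at least 1.5 as well, ACTG1, MYL12B and CFL2 were higher (4.63% of all genes) and 0 of the 42 were lower (5.58% of all genes). These shares lay near the background in both directions. By single libraries, 11 genes had all LOC_OE values above all Vector values (24.4% of all genes) and 8 had all of them below (20.9% of all genes). The median log2 fold change of the 42 was 0.08, and that of all genes tested was 0.02. On this scale a change at low FPKM is understated.

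**Figure D1:**
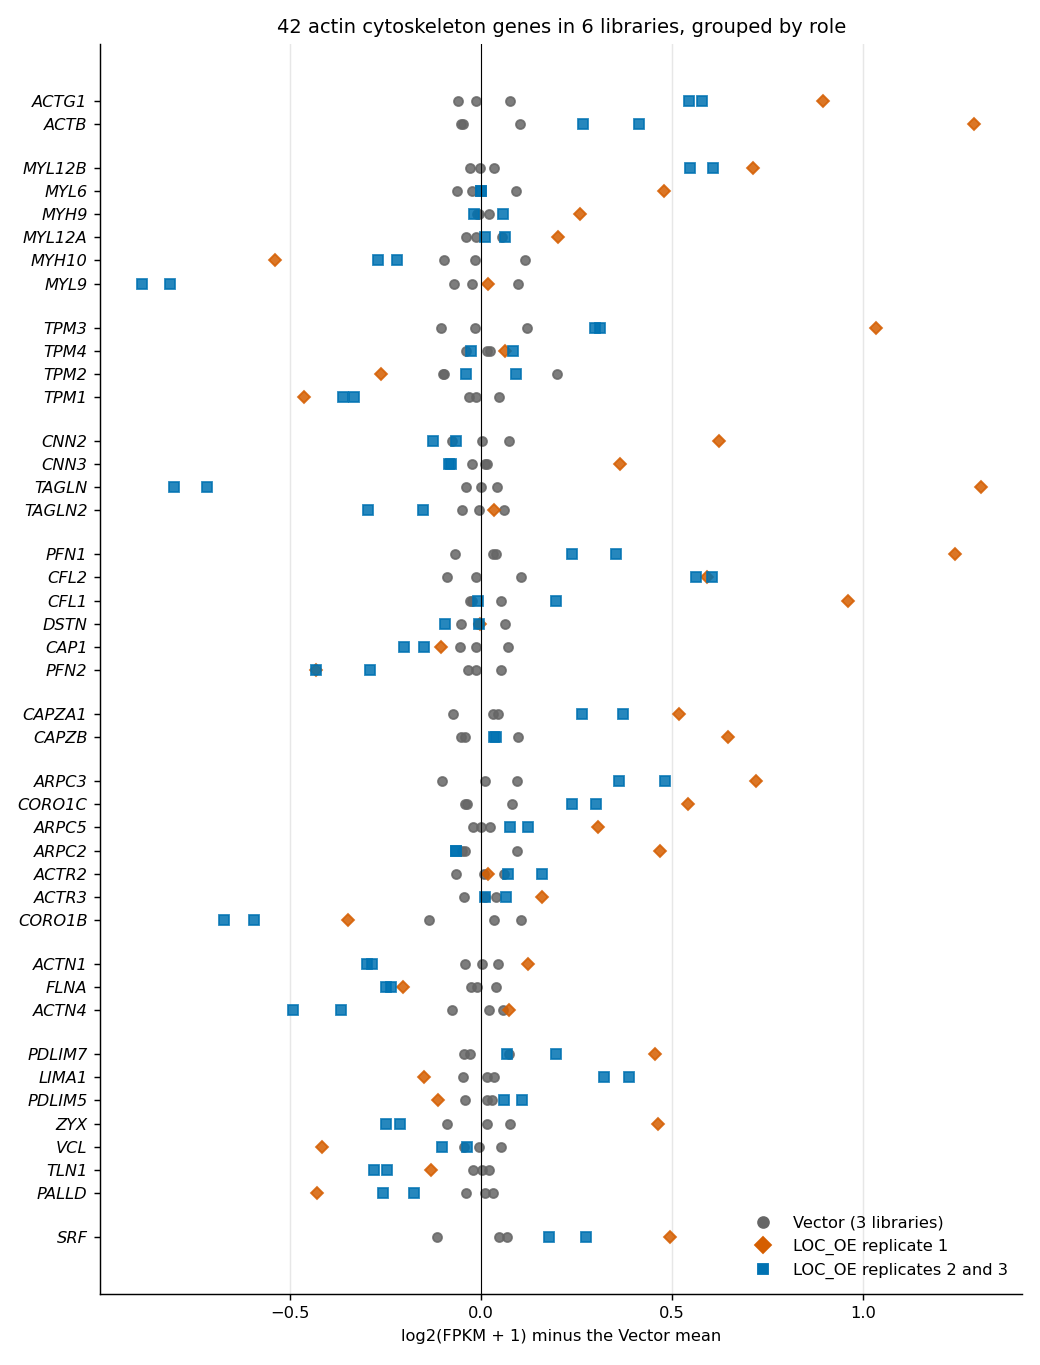
Level of each of the 42 tested genes in each library, as log2(FPKM + 1) minus the mean of the 3 Vector libraries, with genes grouped by role and ordered within a role by log2 fold change. Grey circles are Vector libraries, the orange diamond is LOC_OE replicate 1 and blue squares are LOC_OE replicates 2 and 3. The diamond lies above the mean of the 2 squares for 33 of the 42 genes.

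Both cytoplasmic actins were above Vector in each LOC_OE library. ACTG1 encodes gamma-actin (ENSG00000184009, chromosome 17, 81509971 to 81523847, minus strand of GRCh38), and it measured 976, 917 and 887 FPKM in Vector and 1724, 1383 and 1351 FPKM in LOC_OE. The lowest LOC_OE value was well above the highest Vector value, and the log2 fold change was 0.67 ± 0.13 (SE) at an adjusted p-value of 0.0206 from limma. ACTB encodes beta-actin, the partner of gamma-actin in non-muscle filaments. It measured 617, 556 and 554 FPKM in Vector, and 1408 in LOC_OE replicate 1 but 765 and 692 in replicates 2 and 3. The groups did not overlap, yet the spread within LOC_OE was wide, and the log2 fold change of 0.66 ± 0.27 (SE) did not pass the test (adjusted p = 0.133 from limma). The ratio of ACTB to ACTG1, which multiplying a library by a constant leaves as it is, was 0.606 to 0.633 in Vector. LOC_OE replicate 1 stood above that range at 0.816, and replicates 2 and 3 below it at 0.554 and 0.512.

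Among the myosin II chains, MYL12B rose and the other 5 did not pass the test. MYL12B, a regulatory light chain of non-muscle myosin II (ENSG00000118680, chromosome 18, 3261479 to 3278431, plus strand), measured 128, 125 and 122 FPKM in Vector and 205, 190 and 183 FPKM in LOC_OE. All LOC_OE libraries were higher by a margin far larger than the spread of either group (log2 fold change 0.62 ± 0.09 SE, adjusted p = 0.0087 from limma). Its neighbour MYL12A, which encodes a nearly identical light chain, measured 47.2, 49.6 and 46.3 FPKM in Vector and 54.9, 48.0 and 49.8 FPKM in LOC_OE, and the groups overlapped (log2 fold change 0.09 ± 0.09 SE). No stretch of 100 bases was shared between the exons of MYL12B and those of another annotated gene.
MYL9, the regulatory light chain most abundant in smooth muscle, measured 14.7, 16.6 and 15.2 FPKM in Vector. In LOC_OE it measured 15.7 in replicate 1 and 8.38 and 7.91 in replicates 2 and 3. Replicate 1 fell within the Vector range and the other two well below it, and the log2 fold change was -0.56 ± 0.24 (SE, adjusted p = 0.147 from limma). The heavy chain MYH9 had a mean of 104 FPKM in Vector and 112 in LOC_OE. The heavy chain MYH10 was far less abundant, with 1.81, 1.97 and 2.25 FPKM in Vector and 1.07, 1.495 and 1.58 FPKM in LOC_OE, where all values were lower, but the log2 fold change of -0.34 did not pass the test. The essential light chain MYL6 had a log2 fold change of 0.16.

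The tropomyosins, which line the filament and set which myosins and cofilins reach it, did not move as one. TPM1 (ENSG00000140416, chromosome 15, 63042632 to 63071915, plus strand) measured 4.73, 5.06 and 4.80 FPKM in Vector and 3.25, 3.65 and 3.56 FPKM in LOC_OE. It was lower in each LOC_OE library (log2 fold change -0.39 ± 0.08 SE, adjusted p = 0.0226 from limma). TPM3 measured 49.8, 42.4 and 45.2 FPKM in Vector and 94.5, 56.9 and 56.4 FPKM in LOC_OE. The highest value by far was replicate 1, and the log2 fold change of 0.55 ± 0.21 (SE) did not pass (adjusted p = 0.112 from limma). TPM4, with a mean of 90.7 FPKM in Vector and 93.2 in LOC_OE, and TPM2, with 5.49 and 5.18, had log2 fold changes of 0.04 and -0.07.

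Of the calponin family, which binds actin alongside tropomyosin, 0 of the 4 tested genes passed the test, and TAGLN had the largest gap between LOC_OE libraries of the 42 genes. TAGLN encodes transgelin, also called SM22-alpha, a smooth muscle protein and a classical SRF target. It measured 11.5, 11.1 and 10.8 FPKM in Vector, and the LOC_OE libraries held 29.1 FPKM in replicate 1 against 6.38 and 5.96 FPKM in the other replicates. Replicate 1 lay above all Vector libraries and the other two below all of them, so the log2 fold change of -0.07 ± 0.55 (SE) describes neither. TAGLN2 measured 23.04, 21.3 and 21.96 FPKM in Vector and 22.6, 19.8 and 17.8 FPKM in LOC_OE. CNN2 and CNN3 had log2 fold changes of 0.14 and 0.07, and both were higher in replicate 1 than in any other library.

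Genes for filament turnover moved in both directions, with CFL2 up and PFN2 down. CFL2, a cofilin that severs filaments and is best known from muscle (ENSG00000165410, chromosome 14, 34706769 to 34714823, minus strand), measured 8.49, 8.01 and 9.31 FPKM in Vector and 13.4, 13.6 and 13.2 FPKM in LOC_OE. Its LOC_OE libraries lay close together and all above Vector (log2 fold change 0.59 ± 0.08 SE, adjusted p = 0.0088 from limma). CFL1, the main non-muscle cofilin, measured 62.5, 66.2 and 62.7 FPKM in Vector and 125, 73.2 and 63.4 FPKM in LOC_OE, and replicate 3 lay within the Vector range (log2 fold change 0.38 ± 0.24 SE).
PFN2, a profilin that is prominent in neurons (ENSG00000070087, chromosome 3, 149964904 to 150050788, minus strand), measured 21.5, 20.5 and 20.2 FPKM in Vector and 15.1, 15.1 and 16.8 FPKM in LOC_OE. It fell by 0.39 on the log2 scale (SE 0.08, adjusted p = 0.0228 from limma). PFN1, the widely expressed profilin, measured 299, 298 and 278 FPKM in Vector and 690, 372 and 344 FPKM in LOC_OE. All LOC_OE values were above Vector, but replicate 1 stood far above the others, and the log2 fold change of 0.61 ± 0.26 (SE) did not pass (adjusted p = 0.149 from limma). The depolymerising factor DSTN and the cyclase-associated protein CAP1, which recharges monomers, had log2 fold changes of -0.03 and -0.15.

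Both subunits of capping protein were above their Vector mean, and CAPZA1 passed the test. CAPZA1, the alpha subunit, measured 78.7, 73.2 and 79.6 FPKM in Vector and 111, 99.95 and 92.7 FPKM in LOC_OE. It rose by 0.38 ± 0.10 (SE) on the log2 scale (adjusted p = 0.0384 from limma). The beta subunit CAPZB had a mean of 39.2 FPKM in Vector and measured 61.8, 40.2 and 40.1 FPKM in LOC_OE, with replicates 2 and 3 inside the Vector range.

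The Arp2/3 complex starts branches on existing filaments, and coronins act on those branches. ARPC3, a subunit of the complex (ENSG00000111229, chromosome 12, 110434825 to 110450422, minus strand), measured 51.4, 44.7 and 48.5 FPKM in Vector and 79.8, 67.5 and 62.0 FPKM in LOC_OE. It was higher in each LOC_OE library (log2 fold change 0.52 ± 0.12 SE, adjusted p = 0.0281 from limma). The other subunits ARPC2, ARPC5, ACTR2 and ACTR3 had log2 fold changes between 0.08 and 0.17, and none passed.
CORO1B (ENSG00000172725, chromosome 11, 67435510 to 67443821, minus strand) measured 38.0, 36.1 and 32.0 FPKM in Vector and 27.5, 23.03 and 21.7 FPKM in LOC_OE. It fell by 0.54 ± 0.12 (SE) on the log2 scale (adjusted p = 0.0254 from limma). Of its exonic stretches of 100 bases 19.5% also lie in exons of the overlapping gene PTPRCAP, whose mean was below 1 FPKM. Its relative CORO1C measured 87.3, 80.3 and 80.2 FPKM in Vector and 121, 102 and 97.6 FPKM in LOC_OE. The groups did not overlap, in the opposite direction to CORO1B, and the log2 fold change of 0.36 ± 0.11 (SE) did not pass the test (adjusted p = 0.0588 from limma).

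**Figure D2:**
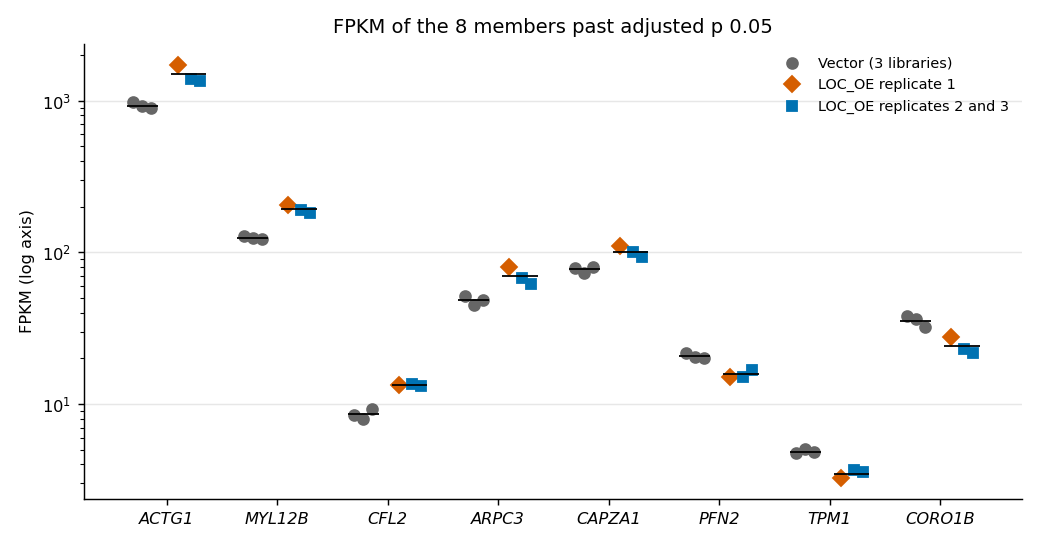
FPKM, on a log axis, of the 8 genes with an adjusted p-value under 0.05 from limma, with 1 point per library and a black bar at the mean of each group of 3. ACTG1, MYL12B, CFL2, ARPC3 and CAPZA1 lie higher in LOC_OE, PFN2, TPM1 and CORO1B lie lower, and the groups of each gene do not overlap.

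None of the 3 tested crosslinkers and 7 tested adhesion and stress fibre genes passed the test. Filamin A, encoded by FLNA, measured 230, 241 and 233 FPKM in Vector and 203, 197 and 199 FPKM in LOC_OE. All LOC_OE values were lower, and the log2 fold change was -0.23 ± 0.08 (SE, adjusted p = 0.0903 from limma). The alpha-actinins ACTN1 and ACTN4 had log2 fold changes of -0.15 and -0.26. Zyxin, which marks stress fibres under tension, measured 166, 159 and 148 FPKM in Vector and 217, 135 and 132 FPKM in LOC_OE. As with TAGLN, replicate 1 was above every Vector library and replicates 2 and 3 below, and the log2 fold change over all 6 libraries was -0.0002.
The integrin activator talin, from TLN1, had a mean of 43.4 FPKM in Vector and 37.1 in LOC_OE, and palladin, from PALLD, had 6.15 and 4.87, with no overlap between groups for either gene. Their log2 fold changes of -0.22 and -0.29 did not pass. Vinculin, from VCL, had a log2 fold change of -0.19, LIMA1 of 0.19, PDLIM5 of 0.02 and PDLIM7 of 0.24. SRF itself measured 19.96, 20.3 and 17.7 FPKM in Vector and 27.6, 23.5 and 21.96 FPKM in LOC_OE. Its groups did not overlap, and its log2 fold change of 0.31 ± 0.11 (SE) did not pass (adjusted p = 0.0894 from limma).

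LOC_OE replicate 1 carried higher levels of most of these genes than its companions. It exceeded the mean of replicates 2 and 3 for 33 of the 42 genes, with a median gap of 0.25 on the log2 scale and a range from -0.50 for LIMA1 to 2.07 for TAGLN, while over all genes tested the median gap was 0.02 and 51.9% were above 0. The count differed between scalings. With each library centred on its median it stayed at 33, with a median gap of 0.29 against 0.06 over all genes tested. It was 22 of 42, with a median gap of 0.03, when libraries were set to the same sum of FPKM. After quantile normalization it was 20 of 42, with a median gap of -0.04. Summed FPKM was 360434 in replicate 1 and 310012 and 305702 in replicates 2 and 3. Setting the same sum therefore lowers replicate 1 against them for every expressed gene. The gap over all genes under these last 2 scalings is not given here. For 34 of the 42 genes, or 81.0%, the gap was larger than the range of the 3 Vector libraries, which held for 61.9% of all genes. The median level over the Vector mean was 0.23 in replicate 1, 0.00 in replicate 2 and -0.02 in replicate 3.
For 6 genes (TAGLN, ZYX, ARPC2, ACTN4, CNN3 and ACTN1) replicate 1 lay above all Vector libraries and replicates 2 and 3 below all of them, a pattern that 5.35% of all genes tested showed. With the same sum of FPKM it was kept by TAGLN, ARPC2 and ZYX, and with quantile normalization by TAGLN. The reverse pattern was seen for LIMA1 and PDLIM5, against 4.71% of all genes. LIMA1, also called EPLIN, which stabilises filaments, measured 12.5, 11.9 and 12.6 FPKM in Vector, 11.0 in replicate 1 and 16.4 and 15.6 in replicates 2 and 3.
Other genes moved with replicate 1 as well. The summed FPKM of the 11 epithelial markers was 39.4 to 41.5 in Vector, 89.6 in LOC_OE replicate 1 and 48.4 at the lowest in LOC_OE, with KRT18 at 67.5 FPKM in replicate 1, 25.3 and 25.1 in replicates 2 and 3 and 18.1 to 19.8 in Vector. KRT8 went the other way, at 9.02 FPKM in replicate 1, 13.3 and 13.7 in replicates 2 and 3 and 11.7 to 11.9 in Vector, so the higher sum in replicate 1 was almost all KRT18. The summed FPKM of the 8 smooth muscle markers was 30.8 to 34.7 in Vector and 26.1 to 42.3 in LOC_OE, the highest again in replicate 1, where SMTN was at 41.0 FPKM while ACTA2 was at 1.13. The part of these differences in the results was not tested.

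**Figure D3:**
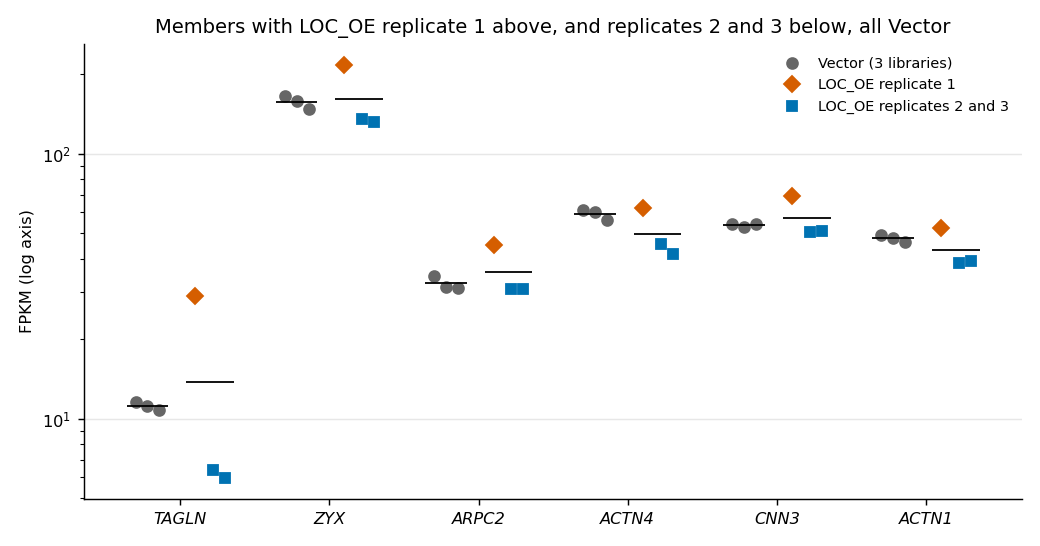
FPKM, on a log axis, of the 6 genes whose LOC_OE replicate 1 (orange diamond) lies above all 3 Vector libraries (grey circles) while LOC_OE replicates 2 and 3 (blue squares) lie below all of them. Black bars are group means, and TAGLN has the widest gap, from 29.1 FPKM in replicate 1 to 5.96 in replicate 3.

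Without LOC_OE replicate 1, more of the genes passed the test, 10 higher and 12 lower. Over all genes the same fit called 19.8% higher and 16.8% lower. All 8 genes that had changed over 6 libraries also changed here, in the same direction. The 5 further genes that rose were ACTB, TPM3, PFN1, CORO1C and LIMA1, and the 9 further genes that fell were MYL9, TAGLN, TAGLN2, ACTN1, ACTN4, FLNA, ZYX, TLN1 and PALLD. By role, all 3 tested crosslinkers, 2 of the 4 tested calponin family genes and 3 of the 7 tested adhesion and stress fibre genes fell. Of these 7 genes 1 rose. The 2 actins and 1 of the 2 capping genes rose. The filament turnover group and the Arp2/3 and coronin group each had 2 genes that rose and 1 that fell. The myosin II chains and the tropomyosins each had 1 that rose and 1 that fell. With a fold change of at least 1.5 as well, 0 were higher (4.5% of all genes) and MYL9, TAGLN and CORO1B were lower (6.04% of all genes).
For MYL9 the log2 fold change reached -0.85, at an adjusted p-value from limma of 0.0011 that ranged from 0.0004 to 0.319 over the 16 alternative fits. For TAGLN it was -0.76 (limma adjusted p = 0.0010, and 0.0010 to 0.967 over the alternatives), and for ACTN4 it was -0.43 (limma adjusted p = 0.0051, and 0.0026 to 0.522). ACTN1 had -0.29 and ZYX had -0.23. LIMA1 was at 0.35 (limma adjusted p = 0.0051, and 0.0023 to 0.856). ACTB was at 0.34 and PFN1 at 0.29, against 0.66 and 0.61 over all libraries. These calls rest on 2 LOC_OE libraries against 3 of Vector.

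**Figure D4:**
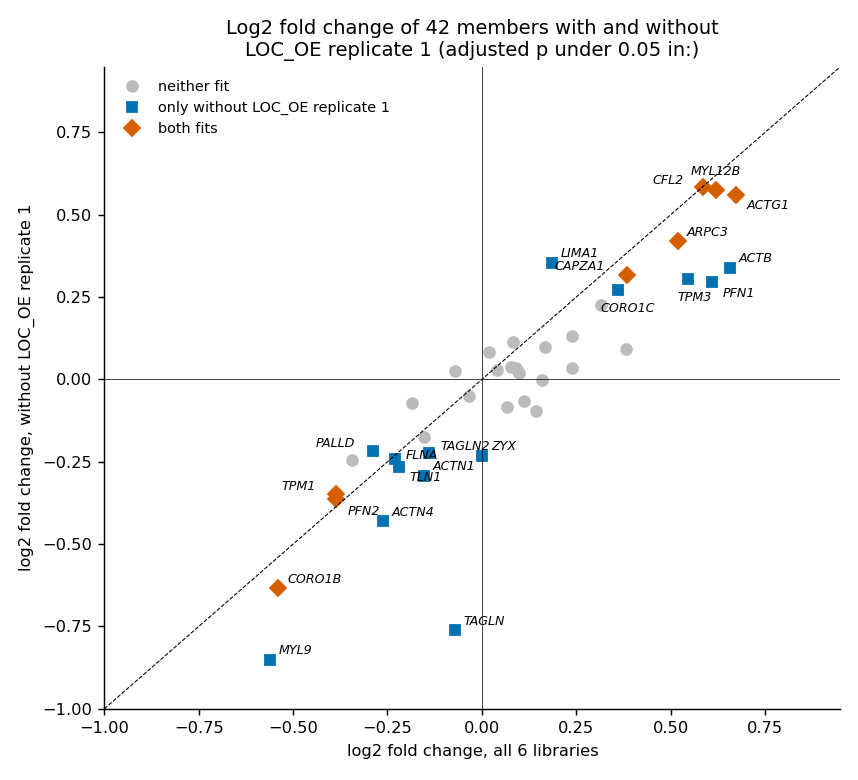
Log2 fold change of LOC_OE over Vector for the 42 genes, in the fit of all 6 libraries (horizontal axis) and in the fit without LOC_OE replicate 1 (vertical axis), with equal values on the dashed line. Orange diamonds passed an adjusted p-value of 0.05 in both fits (8 genes), blue squares only without replicate 1 (14 genes) and grey circles in neither, and TAGLN lies farthest from the line.

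The choice between related genes was then compared within each library, as ratios that are not altered by multiplying a library by a constant. Quantile normalization, which is not of that kind, can alter them. Of 8 ratios 5 did not overlap between groups. The smallest two-sided p-value that an exact permutation test of 3 libraries against 3 can give is 0.10, which these 5 reached, and it became 0.16 after Benjamini-Hochberg adjustment over the 8, so none passed. The ratio of PFN2 to PFN1 was 0.0720, 0.0690 and 0.0728 in Vector and 0.0219, 0.0406 and 0.0489 in LOC_OE, a difference of -1.02 in the mean log2 ratio, and of -0.68 without LOC_OE replicate 1. MYL9 to MYL12A went from 0.312, 0.336 and 0.328 to 0.286, 0.175 and 0.159, a difference of -0.70, and of -0.97 without replicate 1. For both ratios each LOC_OE library lay below each Vector library.
MYH9 to MYH10, the ratio of the main non-muscle heavy chains, was 45.9 to 57.0 in Vector and 117, 68.7 and 68.6 in LOC_OE, a difference of 0.66, and of 0.40 without replicate 1. TPM4 to TPM3 went from 1.85 to 2.08 in Vector down to 1.00, 1.69 and 1.58 in LOC_OE, a difference of -0.52, and of -0.28 without replicate 1. TPM1 to TPM2 went from 0.750 to 1.00 in Vector down to 0.740, 0.622 and 0.674 in LOC_OE, differences of -0.40 and -0.46. The other 3 ratios overlapped because replicate 1 lay on the other side of Vector from replicates 2 and 3. TAGLN to TAGLN2 was 0.492 to 0.524 in Vector, 1.29 in replicate 1 and 0.323 and 0.335 in replicates 2 and 3. CFL2 to CFL1 was 0.121 to 0.148 in Vector, 0.107 in replicate 1 and 0.186 and 0.208 in the others, a difference of 0.25, and of 0.54 without replicate 1.

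**Figure D5:**
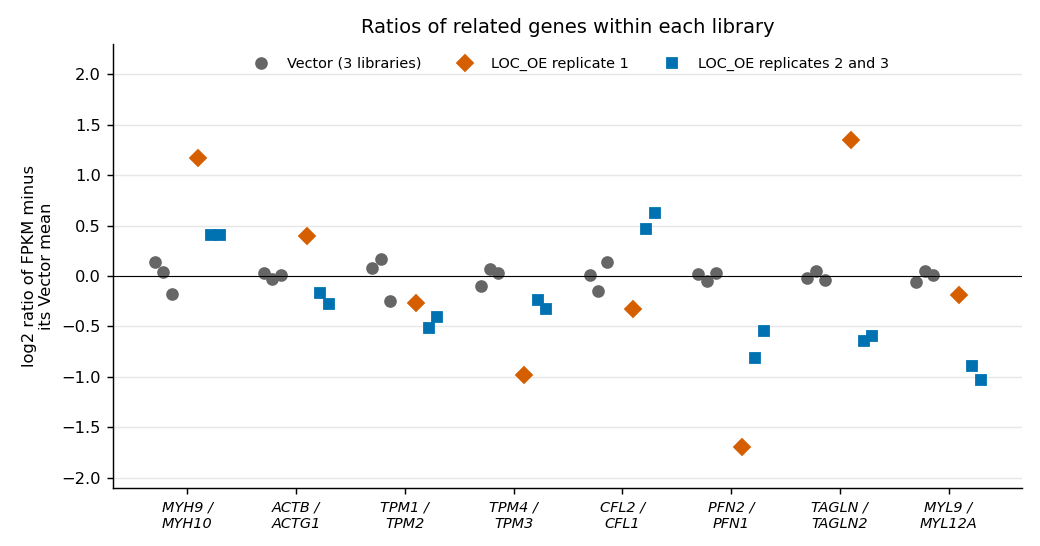
Log2 ratio of FPKM of 8 pairs of related genes in each library, minus the mean of the 3 Vector libraries, with the symbols of the other plots. PFN2 to PFN1 lies lowest, at -1.70 in LOC_OE replicate 1, and for ACTB to ACTG1, CFL2 to CFL1 and TAGLN to TAGLN2 replicate 1 falls on the opposite side of 0 from replicates 2 and 3.

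The wider actin pathway, 115 further genes in 5 lists, showed changes in both directions. Of the 91 that were tested 13 rose and 8 fell, shares that can be read against the 10.7% and 9.74% of all genes. Of 16 tested genes of WAVE, WASP and the remaining Arp2/3 subunits, ARPC5L (0.88) and the WAVE complex member NCKAP1 (0.32) rose and WASF2 (-0.39) fell. ARPC5L, an alternative to ARPC5 in the complex, measured 17.0, 15.5 and 15.8 FPKM in Vector and 42.9, 26.2 and 24.8 FPKM in LOC_OE. Of 29 other actin-binding proteins 3 rose and 4 fell. Twinfilin-1, from TWF1, a monomer-binding protein that also acts at barbed ends, measured 34.3, 34.7 and 38.5 FPKM in Vector and 83.0, 65.7 and 66.9 FPKM in LOC_OE. It rose by 0.98 ± 0.12 (SE) on the log2 scale (adjusted p = 0.0065 from limma), and CAP2 (0.53) and CAPZA2 (0.42), the other alpha subunit of capping protein, rose too. Gelsolin (GSN, -0.86), which severs and caps filaments, CAPG (-0.51), which caps them, and the myosin heavy chain MYH14 (-0.69) fell.

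Among 24 tested integrin and focal adhesion genes 3 rose and 2 fell. The parvin PARVA (0.82), the kindlin FERMT1 (0.54) and focal adhesion kinase, PTK2 (0.52), were higher in LOC_OE, and tensin-1, TNS1 (-0.64), and the fibronectin receptor subunit ITGA5 (-0.51) were lower. Of 12 tested SRF cofactors and YAP or TEAD factors 3 rose and 0 fell. These were TEAD2 (0.65), TEAD4 (0.53) and the TEAD coactivator WWTR1 (0.41). In this list 2 genes rose and 2 fell with the same sum of FPKM, and 6 rose and 1 fell without LOC_OE replicate 1. Of 10 further SRF or YAP target genes, CCN1 and AXL rose and ACTA2 fell. CCN1, a matricellular protein and YAP target, measured 93.2, 88.7 and 88.0 FPKM in Vector and 143, 140 and 131 FPKM in LOC_OE, all above Vector (log2 fold change 0.61 ± 0.08 SE, adjusted p = 0.0080 from limma). AXL had a log2 fold change of 0.30, which turned to -0.03 after quantile normalization. ACTA2, the smooth muscle actin, measured 3.17, 3.35 and 2.53 FPKM in Vector and 1.13, 1.09 and 1.12 FPKM in LOC_OE, so it lay lower in every LOC_OE library (log2 fold change -0.92 ± 0.11 SE, adjusted p = 0.0065 from limma). Over the 91 genes, 33 rose and 18 fell in the fit that omitted LOC_OE replicate 1, where 19.8% and 16.8% of all genes did.

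The direction of the 8 changed genes did not depend on the scaling, but their balance did. When the libraries were set to the same sum of FPKM the median log2 fold change of all genes moved from 0.02 to -0.18, and that of the 42 genes from 0.08 to -0.18. Of the 42 genes 4 then rose and 12 fell, against 4.39% and 19.5% of all genes. With quantile normalization 4 rose and 11 fell, against 10.4% and 11.2% of all genes. Under both, none of the 8 genes changed sign and 7 of them still passed, all but CAPZA1. By contrast, 14 of the 42 log2 fold changes turned sign with the same sum and 11 with quantile normalization. Leaving out a Vector library ended most calls, for these 8 genes and over all genes. Without Vector replicates 1, 2 and 3 in turn, 574 of 15367, 249 of 15277 and 391 of 15273 genes tested changed. With all 6 libraries 3277 of 16061 had changed. Without LOC_OE replicate 2, 2 of the 8 genes still passed, and 1714 of 15638 genes changed. MYL12B and CFL2 passed in 4 of the 6 leave-one-out fits, ACTG1, ARPC3, CAPZA1, TPM1 and PFN2 in 2 and CORO1B in 1.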

How the data were processed

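The authors made libraries of total RNA (NEBNext Ultra kit) and read them on a NovaSeq instrument as paired reads of 150 bases. The submitters' processing notes name HISAT2 2.0.4, StringTie 1.3.0 and hg38, without their roles. The counting step, annotation and strand setting are not given in the sources used here, so overlapping and antisense genes can share reads. The authors deposited 1 table of FPKM values for 6 libraries. All 58735 identifiers matched GENCODE 29, whose symbols and coordinates were used. FPKM times the merged exon length gave whole reads within a tolerance of 0.01 for 100% of the values. By these reads the deposited FPKM had been divided by median-of-ratios library sizes, so no further scaling was applied. Intervals of reads cover counting error only.

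Genes that reached 0.5 FPKM in 3 or more libraries were fitted with limma 3.58.1 (R 4.3.3) on log2(FPKM + 1) with a variance trend, and p-values were adjusted by the Benjamini-Hochberg method over all genes tested. Ratios were tested by an exact two-sided permutation test in scipy 1.17.1, and plots were drawn with matplotlib 3.10.9. On simulated data (16471 genes tested), 29 of 67 genes changed by 1.5-fold, 65 of 67 changed by 2-fold and 66 of 66 changed by 3-fold were recovered. Of 16271 unchanged genes 17 were called. In the simulated data every gene had the same setting for spread between libraries, and no library stood apart as LOC_OE replicate 1 did. Altered genes were drawn only from those of higher FPKM, so these rates do not measure recovery in the real libraries. Libraries were given in full for genes with an adjusted p-value under 0.05 or a fold change of at least 1.5 and for the 6 most abundant genes. Other members are named with their fold change within their role, and up to 3 increases and 3 decreases were named per pathway list. MYL9, MYL12A, MYH10, TPM3, TAGLN, TAGLN2, CFL1, CAPZB, CORO1C, LIMA1, SRF, KRT18 and KRT8 were given by library after their values were seen. Of the pathway lists, 1 is not reported here. The genes and the lists were chosen with earlier results of these data known. Alternatives were another pseudocount, other filters, other scalings, no variance trend, array weights, a replicate block, voom on the recovered reads, unadjusted p-values and leaving out each library. The counts for each list without LOC_OE replicate 1 and the centring of each library on its median were added after seeing the data.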

Additional observations from a re-analysis of the deposited data

How the results depend on the processing

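Over all 6 libraries, 5 of the 42 genes rose and 3 fell, and 3 and 0 did so at a fold change of at least 1.5. Each of these 4 counts stayed within 1.5 times of its value under several alternatives. These were a pseudocount of 0.1, a mean FPKM of at least 1, median-of-ratios rescaling, no variance trend and voom on the recovered reads. Median-of-ratios rescaling repeated the scaling of the deposited values, so it could not alter the counts. Voom used the same library sizes, so it is no check of the scaling either. The number that rose was 2 with no filter on low FPKM, 13 with array weights and 9 with unadjusted p-values, and 0 to 10 in the fits that each omitted a library. The number that fell was 12 with the same sum of FPKM, 11 with quantile normalization, 13 with array weights, 7 with unadjusted p-values and 0 to 12 with a library left out. The number over all genes moved as well. In the fit reported above 1712 of 16061 genes rose and 1565 fell. With array weights 4362 rose and 3724 fell, and with no filter 1052 of 31123 rose and 1229 fell. With a library left out, 101 to 3101 rose and 148 to 2637 fell. At a fold change of at least 1.5, the number higher was 0 with the same sum of FPKM and 0 with quantile normalization, and 0 to 4 with a library left out. The number lower was 4 with the same sum, 1 with quantile normalization, 3 with array weights and 0 to 3 with a library left out. At a fold change of at least 2, 0 genes were higher. The highest of these leave-one-out counts came without LOC_OE replicate 1, apart from the 4 higher at a fold change of at least 1.5, which came without LOC_OE replicate 3. The lowest count of genes that rose, 0, came without Vector replicate 2. The cause of these moves was not tested.

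With the replicate number as a block (replicate block) 4 rose and 1 fell, and 5 of the 8 genes still passed, all but TPM1, PFN2 and CAPZA1. Deviations of libraries with the same number correlated at 0.11, -0.03 and 0.12, not every library correlated best with its own number, and the numbers were not taken to pair the libraries. With a library left out, the sign of the log2 fold change turned for 8 of the 42 genes. These were ZYX, TAGLN, MYL6, TPM2, CNN2, CNN3, ARPC2 and PDLIM5, and the last 6 passed the test in 0 of the 16 alternative fits. ZYX ranged from -0.23 to 0.12, TAGLN from -0.76 to 0.29, the difference in the ACTB to ACTG1 ratio from -0.22 to 0.11 and that of TAGLN to TAGLN2 from -0.62 to 0.38, with the lowest of each of these 4 without LOC_OE replicate 1. LIMA1 turned to -0.056 with the same sum of FPKM. With 3 libraries a group the power for changes near 1.5-fold was low, so a gene that did not pass cannot be read as unaltered.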

Other observations

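Reads on annotated pseudogenes were few beside those on the genes themselves, apart from PDLIM1 with 3 against 2. How alike each pseudogene is to its gene is not given here. Of the 45 genes, 15 overlapped another gene with a mean of at least 1 FPKM, for which shared reads were not measured. Of the 45 genes 13 shared at least 1 exonic stretch of 100 bases with another annotated gene, and 3 shared more than 2% of their stretches, among them CORO1B and ARPC3. Annotated pseudogenes of DSTN carried reads equal to 4.50% of those on DSTN, and those of TPM3 2.07% of the reads on TPM3. The 20 annotated pseudogenes of ACTG1 held 346 reads over the 6 libraries against 363600 on ACTG1 itself, and the 10 of ACTB held 66 against 271659.

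All 6 genes with a CArG box had a higher level in LOC_OE replicate 1 than in the mean of replicates 2 and 3, as did 27 of the 36 genes without a box or a promoter entry. Over all tested genes with a promoter entry, the share was 52.2% of the 138 with a CArG box and 55.3% of the 9328 without. These counts are for the deposited scaling, in which the gap was only 0.03 for TPM4 and 0.04 for FLNA on the log2 scale. Over all 42 genes the count of 33 fell to 22 with the same sum of FPKM and to 20 with quantile normalization. It stayed at 33 with each library centred on its median. The count for the genes with a box was not repeated under those scalings.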
